A study of Mus musculus with 30 samples.

Results

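Expression of immune receptor and cytokine genes was followed across 15 adult organs and tissues of the mouse. The genes were taken from the study's probe lists wherever the symbol began with one of the letter codes of this field, such as Il for interleukins, Ccl and Cxc for chemokines and their receptors, Fcgr and Fcer for Fc receptors, Cd with a number for surface antigens, or H2- for the major histocompatibility complex. This rule used no measured value. It found 30 genes, each with 1 probe, among the 25030 probes of the deposited table, of which 5622 carried a symbol. The lists held here are shortened and follow chromosome 1 for much of their length. Therefore 26 of the 30 genes lie on chromosome 1, and the set is a sample of immune genes and not a survey of them. Irf2bp1 (chromosome 7) entered through the first letters of its symbol alone, since it encodes a partner of a transcription factor and no receptor or cytokine.

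All samples came from male C57BL/6 mice aged 28 weeks by the labels (the study's methods give a slightly higher age), with no treatment given in the labels. They covered fat, bone, muscle, heart, skin and lung, the stomach with small and large intestine, liver, kidney and bladder, and of the nervous system the eyes, brain cortex and cerebellum, with 2 arrays each (30 arrays). Most arrays of a tissue came from different animals. The series description lists 1 replication for fat and for bone, whereas the methods speak of different animals for all tissues and the labels give the 2 arrays different individual identifiers, so it is unsettled whether the spread in these tissues is between animals or technical. Each array carried the tissue RNA in Cy3 (green) and a common reference in Cy5 (red), and the dyes were never exchanged. The reference was a pool of RNA from mouse cell lines, among them macrophage, B-lymphocyte and T-lymphocyte lines, mixed with embryonic stem cell RNA. Immune transcripts were thus part of the reference too, and 18 of the 30 genes had a Cy5 signal well above background on all 30 arrays. Values are log2(Cy3/Cy5) after normalisation, so 0 means as much in the tissue as in the reference where both channels carry signal. Where neither does, a ratio near 0 sets no level. Only values of the same gene in different tissues are compared.

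Cytokines and chemokines are secreted proteins that carry signals between cells, and their receptors sit on the surface of leukocytes and of many tissue cells. Leukocytes are made in bone marrow and patrol or reside in all organs, where macrophages and mast cells carry Fc receptors that bind antibodies. The barrier tissues, that is skin, lung and gut, respond to microbes and injury through the interleukin-1 receptor family and through chemokines. In RNA from whole tissue, fewer cells of a type and less RNA per cell cannot be told apart.

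Across all tested probes, the arrays of a tissue correlated at r between 0.947 and 0.991 in 12 tissues, against 0.848 in bone, 0.798 in large intestine and 0.671 in fat. Defining genes were checked for muscle, skin, small intestine and large intestine only. All 4 skeletal muscle genes (Actn3, Myl1, Cacna1s, Myog) were enriched in muscle, all 3 epidermis genes (Krt10, Sprr1a, Serpinb12) in skin, and all 4 gut epithelium genes (Vil1, Pigr, Alpi, Gpa33) in both small and large intestine. The same skeletal muscle genes were also enriched in skin (4 of 4), bone (3 of 4) and eyes (2 of 4), and the epidermis genes in stomach (3 of 3). The arrays lay on 11 slides and were scanned on 5 days.

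Of the 30 genes, 24 passed the filter, which asked for at least 1 tissue whose 2 arrays both had Cy3 clearly above background, as did 84% of all probes of the table. Il17a, Il1rl1, Il18rap, Il8ra, Il19 and Il10 did not, and for these 6 genes the arrays set no level. Of the 24 genes tested, 11 were above background in all 15 tissues (Ly96, Il1r1, Cxcr7, Cd55, Fcgr2b, Fcgr3, Fcer1g, H2-Ob, Ccl24, Irf2bp1, Il27), 5 in 7 to 14 tissues (Il1r2, Il1rl2, Il18r1, Cd28, Cxcr4) and 8 in 1 to 5 tissues (Il17f, Il8rb, Ccl20, Tnfrsf11a, Il24, Il20, Cd247, Fcgr4).

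The moderated F-test of limma found that 22 of the 24 genes differed among the tissues at an adjusted p under 0.05. As 90.7% of all 21019 probes tested did so, this share is close to the background. A gene was called enriched in a tissue when it was higher there than in the mean of the other 14 tissues by at least 2 on the log2 scale at an adjusted p under 0.05, and low when it was lower by at least 2. By this rule 9 genes were enriched in 1 or 2 tissues (12 combinations of gene and tissue), a share of 37.5% against 34.1% of all probes. Likewise 3 genes were low in 1 or 2 tissues (12.5% against 13.1%). By tissue, 2 genes each were enriched in skin (3.62% of all probes), lung (4.31%) and small intestine (5.06%), and 1 gene each in stomach (3.85%), muscle (3.53%), heart (3.01%), kidney (4.21%), fat (1.59%) and bone (3.16%). Low were 2 genes in cerebellum (4.31% of all probes) and 1 gene each in brain cortex (3.98%) and liver (4.44%). None was enriched in brain cortex (7.17%), eyes (5.49%), liver (5.4%), large intestine (3.99%), bladder (2.34%) or cerebellum (5.99%). Both shares are near those over all probes, and nothing is read from them. Without large intestine, fat and bone, whose arrays agreed least, 22 genes passed the F-test, 11 combinations were enriched and 3 were low. The median information was 0.185 bits, against 0.159 bits over all tested probes (0 bits means equal levels in all tissues). What follows describes which tissue each gene favoured.

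**Figure D1:**
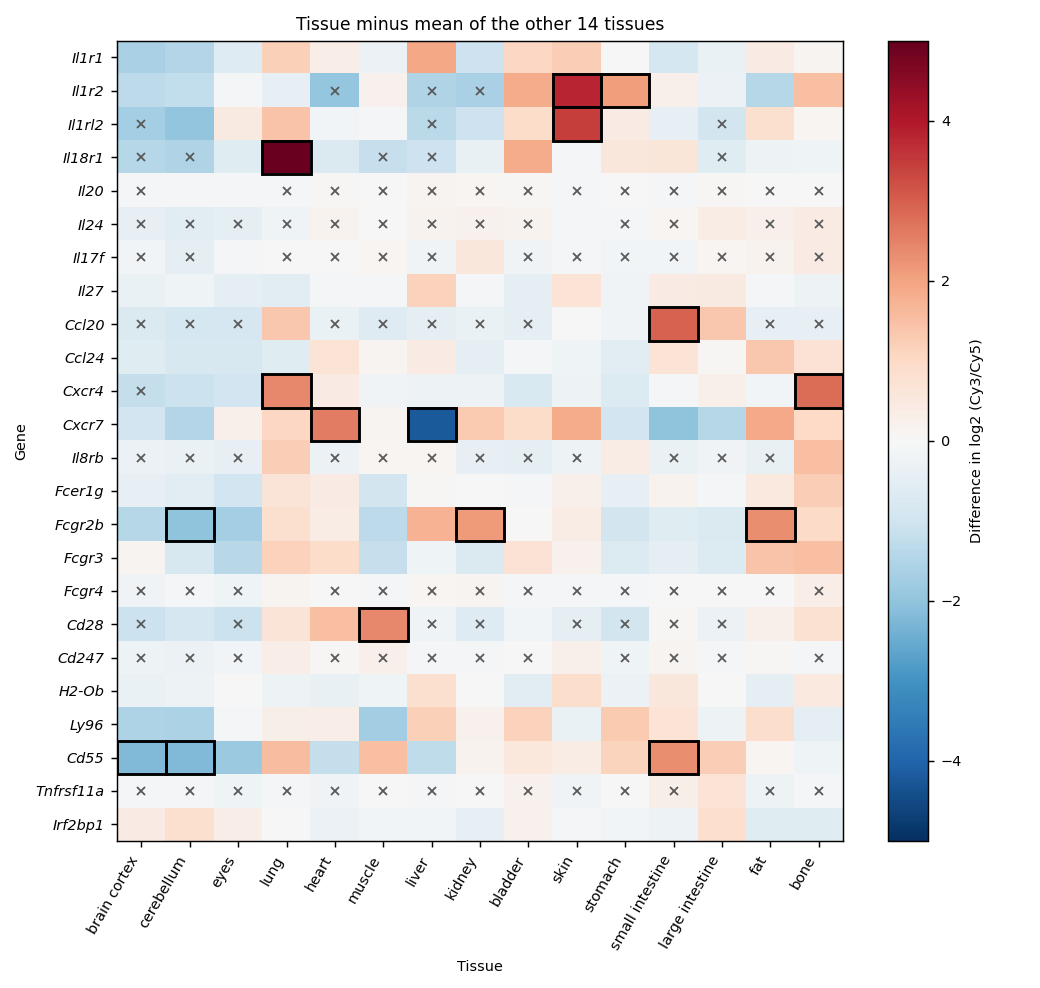
Difference in log2(Cy3/Cy5) between each tissue (columns) and the mean of the other 14, for the 24 tested genes (rows, by role). Colour gives the difference, a black frame marks the 12 enriched and 4 low combinations, and a cross marks a tissue where 1 array or neither had Cy3 above background. The frames are spread over 12 tissues, and the brain columns are mostly blue.

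The clearest shared pattern was by tissue. This comparison was not planned, and the tissues named here are the extremes, picked from the same values. In cerebellum, 17 of the 24 genes were lower than in the mean of the other tissues at an adjusted p under 0.05 and only Irf2bp1 was higher, with a median difference of -0.81. Over all probes 31.2% were lower and 24.6% higher there, and the median difference was -0.11. In brain cortex 14 genes were lower and none higher (all probes: 30.1% lower, 25.6% higher), and in eyes 10 were lower and none higher (22% lower, 24.1% higher). The opposite held for lung and bone. In lung 13 genes were higher and 2 lower, against 20.4% and 23.7% of all probes, with a median difference of 0.49. In bone 13 were higher and none lower, against 16.3% and 22.3%, with a median of 0.37.

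Some of these calls rest on dim signals. Of the 17 genes lower in cerebellum, Il17f, Ccl20 and Cd247 had no cerebellum array above background and Il18r1 and Il24 only 1, and Il17f, Ccl20 and Cd247 lacked signal in most other tissues too. Of the 13 higher in bone, Il17f, Il24 and Fcgr4 had 1 bone array above background. In brain cortex 6 of the 14 and in eyes 3 of the 10 lacked signal on at least 1 array. The stricter filter on dim probes left fewer genes to test, of which 19 passed the F-test. With it, 15 genes were lower in cerebellum, 13 in brain cortex and 9 in eyes, and 13 were higher in lung and 10 in bone.

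A list of leukocyte genes outside the set was also high in bone and lung and low in cerebellum. The mean log2 ratio over 10 leukocyte genes, among them the pan-leukocyte phosphatase Ptprc (CD45), was 0.55 and 1.28 on the bone arrays and -0.07 and 0.70 on the lung arrays. It was -2.15 and -2.14 on the cerebellum arrays, and the arrays of the other 12 tissues lay between -1.88 and -0.35. Of the 10 genes, 6 were enriched in bone (3.16% of all probes) and 3 in lung (4.31%). In cerebellum 0 were enriched (5.99% of all probes) and 1 was low (4.31%). This list was chosen with earlier results of these data known, and its part in the results of the immune genes was not tested. Lists of single leukocyte types had other orders. Of the T and NK cell genes 0 of 9 and of the B cell genes 0 of 5 were enriched in bone, with median differences of 0.08 and -0.08 there, against 0.75 and 0.99 in lung. The mean over 5 macrophage and osteoclast genes was highest in liver (1.34 and 1.76), followed by lung (1.05 and 1.06), with fat (0.77 and 0.99) and bone (0.78 and 0.84) next. The medians kept their signs in the settings tried but moved in size. That of cerebellum was -0.42 with median centring, -0.50 with the Cy3 level alone and -1.21 in the authors' table. That of lung was 0.22 without lung replicate 1, 0.13 without the filter on dim probes and 0.90 with the scanner's processed signals. Those of brain cortex (-1.18), eyes (-0.78) and bone (0.79) were also larger in size with the scanner's processed signals, and that of bone was 0.20 with median centring. Several counts moved with single arrays. Without lung replicate 1 the count in lung was 8, without brain cortex replicate 1 that in brain cortex was 9, and without either eye array that in eyes was 5. In bone it was 8 or 7 without replicate 1 or 2, 6 with median centring in place of loess, and 8 with the slide as a random block.

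**Figure D2:**
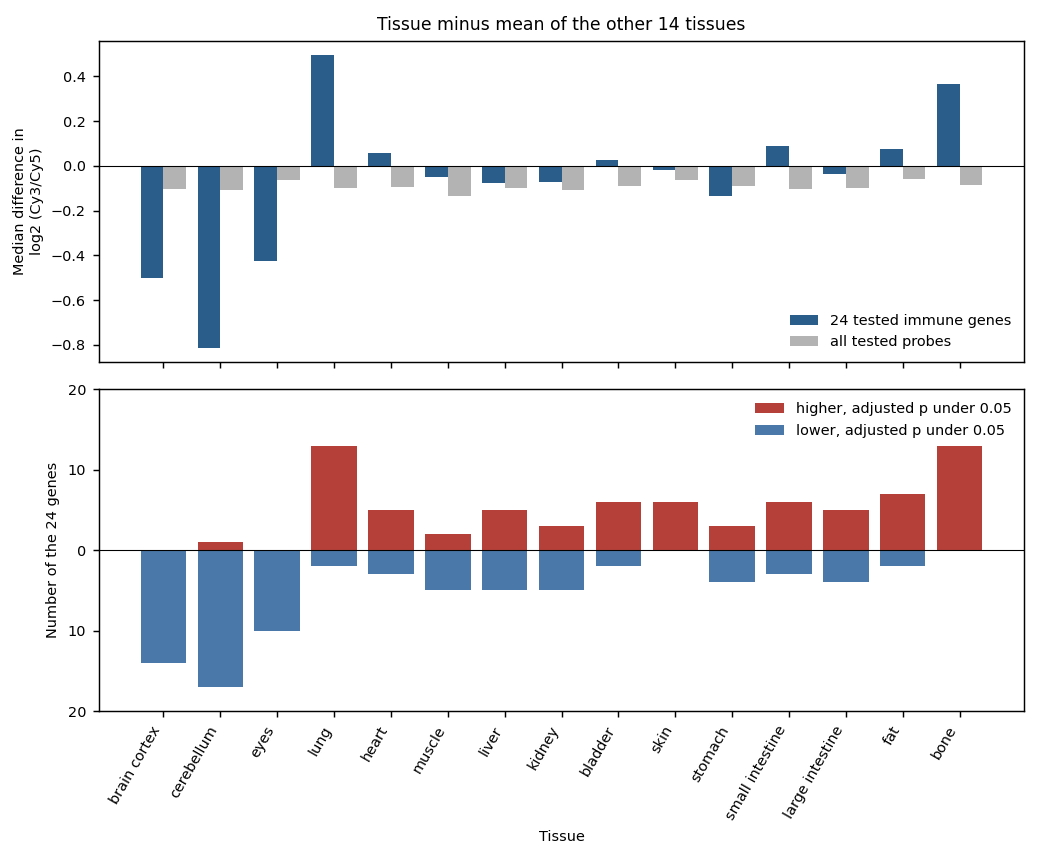
Upper panel: median difference in log2(Cy3/Cy5) between each tissue and the mean of the other 14, over the 24 tested immune genes (blue) and over all 21019 tested probes (grey). Lower panel: number of the 24 genes higher (red) or lower (blue) at an adjusted p under 0.05. Cerebellum, brain cortex and eyes lie on the low side, lung and bone on the high side.

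The interleukin-1 receptor family encodes receptors for interleukin-1, interleukin-18, interleukin-33 and the interleukin-36 cytokines of epithelia. Its 6 genes here are neighbours on chromosome 1, in the order Il1r2, Il1r1, Il1rl2, Il1rl1, Il18r1, Il18rap. Of the 4 that passed the filter, Il1r2 and Il1rl2 were highest in skin, Il18r1 in lung and Il1r1 in liver. Il1r2 encodes a decoy receptor that binds interleukin-1 without passing on the signal. Its probe, shown because the skin result rests on it, is 60 bases long, and the array file gives no genome position for it:
Il1r2 probe: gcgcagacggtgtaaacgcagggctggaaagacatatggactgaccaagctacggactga

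Il1r2 read 4.96 and 4.75 on the skin arrays, 3.21 and 3.30 in stomach, 3.10 and 2.96 in bladder and 2.68 and 2.73 in bone. On all other arrays it lay between -0.55 and 1.93. Both skin arrays thus lay above every other array, and stomach, bladder and bone formed a second level. The difference from the other tissues was 3.82 in skin (SE 0.25, adjusted p = 1.37e-09) and 2.10 in stomach (SE 0.25, adjusted p = 3.47e-06), and in bladder it was 1.85 (adjusted p = 1.79e-05). With median centring the stomach difference was 1.74, under the threshold of 2. In bladder it was past that limit with the offset of 10 (2.00), the scanner's processed signals (2.24) and the authors' table (2.25), and in bone, where it was 1.51, with the Cy3 level alone (2.01), the scanner's signals (2.65) and the authors' table (2.64). In heart, where neither array was above background, the difference was -1.92, and it was low with the Cy3 level alone (-2.03), the offset of 10 (-2.45), the scanner's signals (-3.72) and the authors' table (-3.69). In kidney (-1.63) it was low with the last 2 of these settings (-2.33 and -2.31). The epidermis genes, enriched in the same tissues as Il1r2 (3 of 3 in skin and in stomach), had a mean log2 ratio of 3.21 and 3.42 on the skin arrays and 4.07 and 4.10 on the stomach arrays, and their part in this result was not tested. Il1r2 was also high in bladder and bone. The epidermis list was at 1.29 and 1.36 in bladder with 1 of 3 enriched, and at -0.84 and -0.31 in bone with 0 of 3 enriched.

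The reference channel of this probe was not constant, although every array held the same reference RNA. Its Cy5 signal was 1865 and 1487 scanner units on the skin arrays, against a median of 174 over the 30 arrays. Only Il1r2 and Fcer1g of the 24 genes had an array with at least 4 times the median Cy5 signal, as did 7.91% of all tested probes. Smaller moves of Cy5 with Cy3 were seen in other genes, such as Cd55 (r = 0.864 between log2 Cy3 and log2 Cy5 over 30 arrays, against 0.859 for Il1r2), Il24 (0.79), Fcgr4 (0.783), Cd247 (0.746) and Il1rl2 (0.695), whose highest Cy5 signal was 1.75 to 2.25 times the median. A higher Cy5 signal lowers the ratio, and with the Cy3 level alone Il1r2 was higher in skin by 6.03 (adjusted p = 1.18e-11). The cause was not tested.

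**Figure D3:**
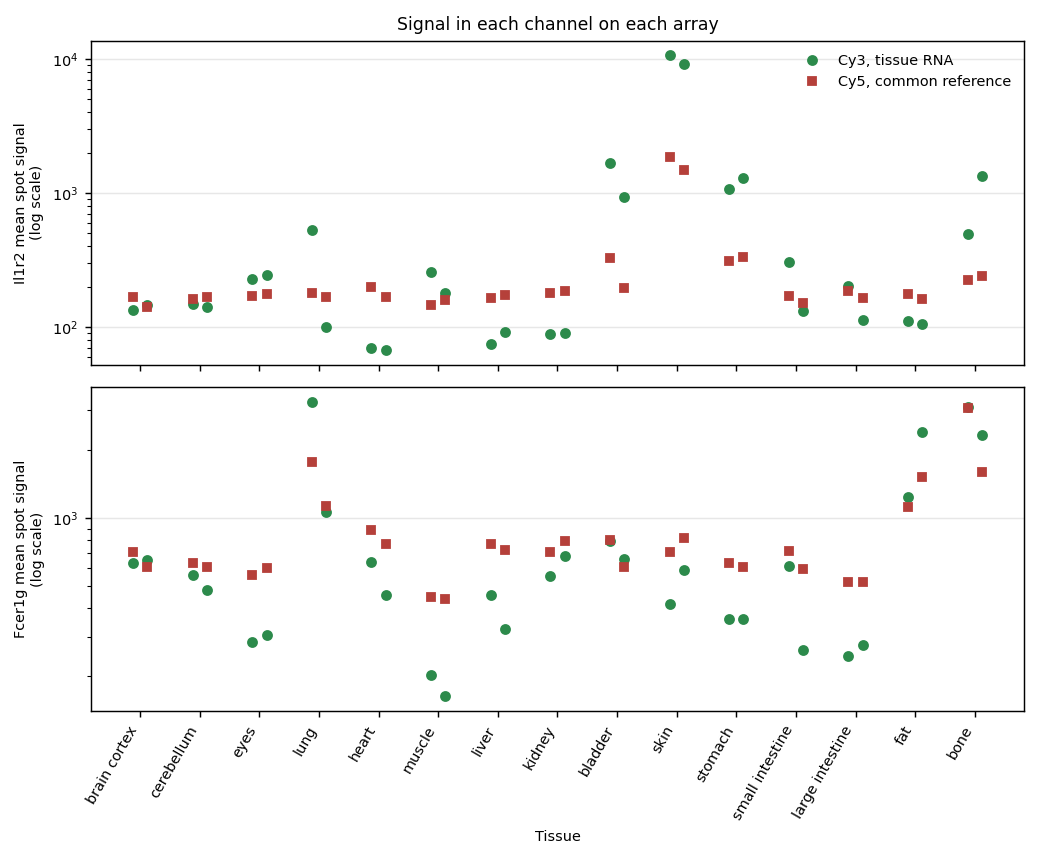
Mean spot signal of Il1r2 (upper panel) and Fcer1g (lower panel) on each of the 30 arrays, on a log axis, with Cy3 (tissue, green circles) and Cy5 (common reference, red squares). Cy5 rises together with Cy3 in skin for Il1r2 and in lung, fat and bone for Fcer1g.

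Il1rl2 encodes the receptor for interleukin-36, a cytokine of the epidermis. It read 3.73 and 3.44 in skin, and next came lung with 1.65 and 1.70. Every other array was at or below 1.42. The skin difference was 3.46 (SE 0.20, adjusted p = 2.07e-10) and held in all 40 alternatives (2.71 to 3.82). In liver neither array was above background. Il1rl2 was lower by -1.95 in cerebellum (adjusted p = 1.69e-07) and by -1.68 in brain cortex (adjusted p = 1.08e-06), and both passed the limit for a low call with the offset of 10 (-2.49 and -2.02), the scanner's processed signals (-2.74 and -2.38) and the authors' table (-2.85 and -2.40). In liver, where it was -1.35, it was low with the scanner's signals (-2.55) and in the authors' table (-2.57).

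Il18r1, the ligand-binding chain of the interleukin-18 receptor, had 1.72 bits and was the only gene of the set above 1 bit in this normalisation (10.3% of all probes were), followed by Il1r2 with 0.995. It read 5.46 and 6.03 in lung, 2.75 and 3.0 in bladder, and at most 2.05 on any other array. The reference was above background on 7 of the 30 arrays, so on most arrays these ratios stand against a reference at background. Both lung arrays stood far above the rest. The difference in lung was 4.92 (SE 0.26, adjusted p = 5.54e-11), held in all 40 alternatives (4.17 to 5.72), and was at least 42.8-fold against brain cortex. It was the largest difference of the set on the ratio scale, whereas with the Cy3 level alone it was 4.17 and that of Il1r2 in skin was 6.03. In bladder the difference was 1.85 (adjusted p = 2.06e-05), and it was past the limit for a call with the offset of 10 (2.04), the scanner's processed signals (2.17) and the authors' table (2.19). In brain cortex it was -1.42, in cerebellum -1.52 and in muscle -1.16, and these were low with the scanner's signals (-4.19, -3.91 and -2.32) and in the authors' table (-3.93, -3.71 and -2.60), the first and second also with the offset of 10 (-2.06 and -2.26). In stomach it was past the limit with the scanner's signals (2.06). The lung arrays shared 1 slide with eyes and 1 with brain cortex, and exceeded them there by 5.46 and 5.49. Il18rap, the accessory chain of the same receptor, had no array above background in Cy3, and for it no lung level was set.

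Il1r1, the signalling interleukin-1 receptor, was above background on all 30 arrays and varied over a smaller range. It read 2.06 and 1.08 in liver, 0.98 and 0.86 in skin and 0.78 and 0.96 in lung, and -1.58 and -1.88 in brain cortex. It was thus higher than the other tissues by 1.93 in liver (SE 0.20, adjusted p = 1.98e-07) and lower by -1.61 in brain cortex (adjusted p = 1.57e-06), both under the limit for a call. With the smaller normexp offset of 10 the liver difference was 2.00. Il1rl1, the interleukin-33 receptor, had 2 arrays above background in Cy3 (fat replicate 1 and bone replicate 1) while its reference signal was above background on all 30. Over the 15 tissue means, the only neighbours of this cluster that were both tested were Il1r2 with Il1r1 (r = 0.312) and Il1r1 with Il1rl2 (r = 0.58). Such correlations are descriptions over tissues that share the reference.

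**Figure D4:**
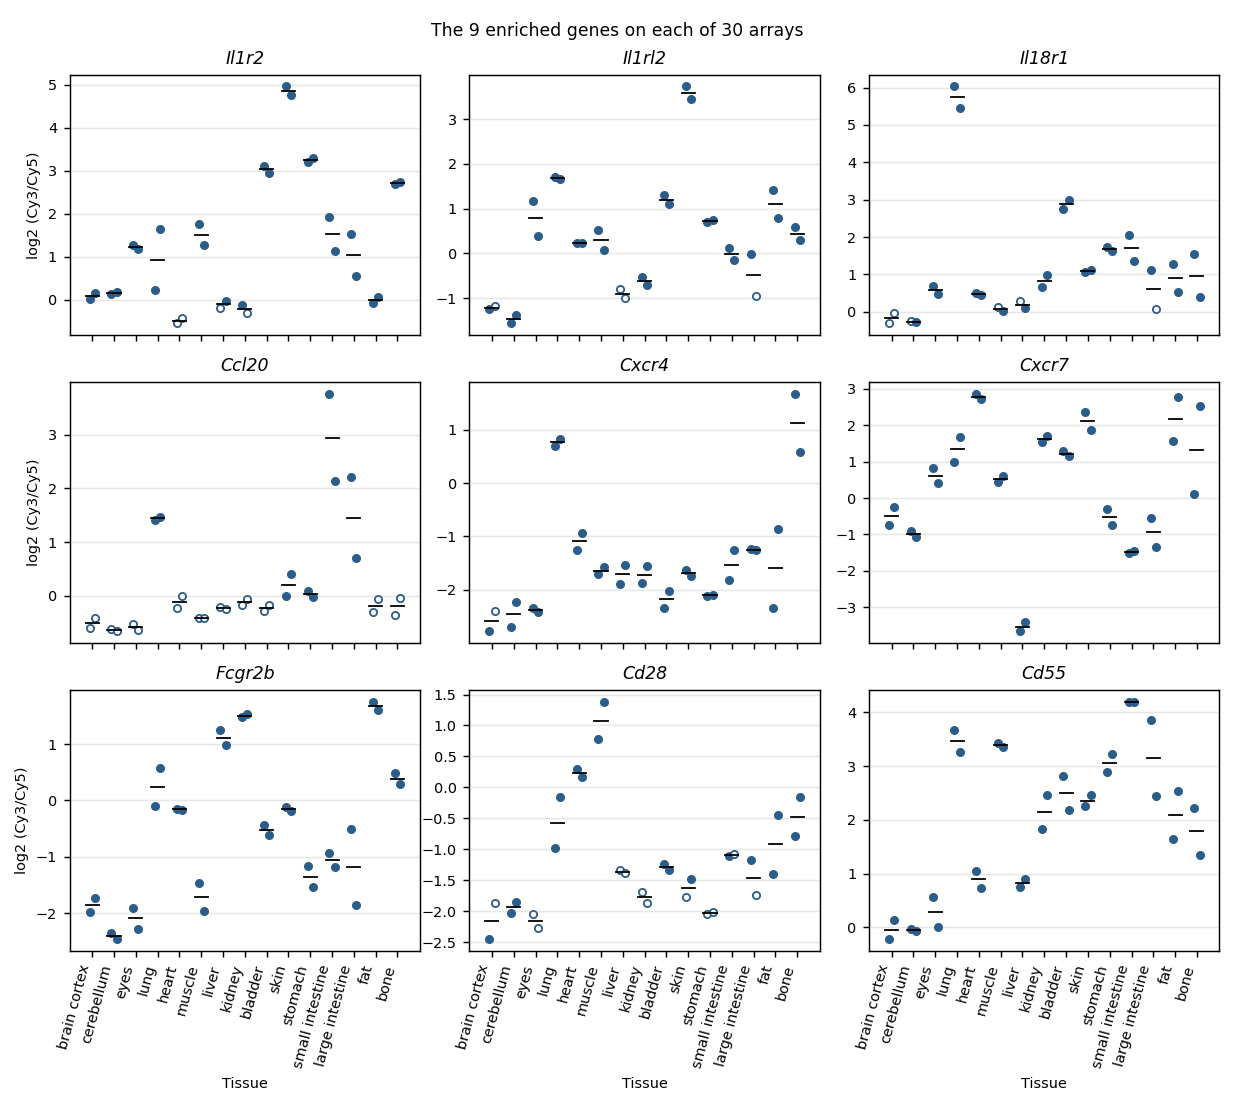
log2(Cy3/Cy5) of the 9 enriched genes on each of the 30 arrays, by tissue. Filled points are arrays with Cy3 well above background, open points are arrays without, and the bar is the mean of the 2 arrays. Il1r2 and Il1rl2 peak in skin, Il18r1 in lung, Ccl20 in small intestine, Cxcr4 in bone and lung, Cxcr7 in heart, Fcgr2b in fat and kidney, Cd28 in muscle and Cd55 in small intestine.

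Of the chemokines, Ccl20 attracts lymphocytes and dendritic cells that bear the receptor CCR6 to mucosal surfaces. It read 3.76 and 2.13 in small intestine, 2.21 and 0.70 in large intestine and 1.47 and 1.41 in lung, and no higher than 0.40 on any other array. In 10 tissues neither array was above background, and the reference was above it on 14 of the 30 arrays. The arrays of small and large intestine overlapped. The difference in small intestine was 2.95 (SE 0.29, adjusted p = 1.54e-07), at least 7.29-fold against those 10 tissues, and fell to 2.14 without small intestine replicate 1. It was 5.24 in the authors' table and 5.26 with the scanner's processed signals. In large intestine the difference was 1.35 (adjusted p = 0.000894), and it was past the limit for a call in those same settings (3.17 and 3.29). In lung the difference was 1.34 (adjusted p = 0.00102) with an SD of 0.046 between arrays, and it was past the limit for a call in the authors' table (3.36) and with the scanner's processed signals (3.49). Ccl24 (chromosome 5), which attracts eosinophils, read -0.71 and 0.70 in fat and lay between -2.07 and -0.41 on all other arrays. It was higher in fat by 1.37 (SE 0.22, adjusted p = 0.000124), but the arrays of fat differed by more than this.

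Chemokine receptors steer leukocyte traffic. Cxcr4 holds blood-forming cells and neutrophils in the bone marrow and is carried by most leukocytes. It read 1.67 and 0.58 in bone and 0.82 and 0.70 in lung, and all other arrays lay between -2.77 and -0.86. Bone and lung overlapped with each other and with no other tissue. The difference was 2.78 in bone (SE 0.27, adjusted p = 2.36e-07) and 2.39 in lung (SE 0.27, adjusted p = 9.75e-07), and both were held in all alternatives, 39 for bone and 40 for lung. Over the 15 tissues Cxcr4 followed Ptprc with r = 0.886 (0.827 to 0.894 in 6 other settings). For Fcer1g r was 0.85, and it exceeded that of Cxcr4 with the scanner's processed signals (0.86 against 0.827) and in the authors' table (0.866 against 0.829). Ptprc itself was enriched in lung by 2.68 (adjusted p = 4.96e-07) and in bone by 2.02 (adjusted p = 1.77e-05).

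Il8rb, the interleukin-8 receptor now called Cxcr2 that guides neutrophils, read 2.19 and 1.35 in bone and 2.44 and 0.60 in lung. It was above background on both arrays only of bone, lung and stomach, with a reference signal on 1 array, and on all other arrays it read 0.97 or less. The difference was 1.52 in bone (SE 0.30, adjusted p = 0.000545) and 1.25 in lung (SE 0.30, adjusted p = 0.00229). With the Cy3 level alone the bone difference was 2.21 (adjusted p = 3.25e-06), past the limit for a call. In the authors' table the differences were 4.90 in bone and 3.20 in lung, and with the scanner's processed signals 5.19 and 3.15, all past that limit. Its neighbour Il8ra, now called Cxcr1, had no array above background in either channel.

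Cxcr7, now called Ackr3, takes up the Cxcr4 ligand CXCL12 without classical signalling and is known from vascular cells. Its tissue means spanned 6.31 between heart and liver. It read 2.85 and 2.71 in heart, 1.56 and 2.76 in fat, 2.35 and 1.87 in skin, and -3.65 and -3.41 in liver. Both liver arrays lay below every other array, of which the lowest was -1.5 in small intestine. Small intestine, with a difference of -1.99, was itself low with median centring (-2.17), the scanner's processed signals (-2.13), the authors' table (-2.06) and the slide as a random block (-2.03). Cxcr7 was lower in liver by -4.19 (SE 0.38, adjusted p = 3.20e-08) and higher in heart by 2.57 (SE 0.38, adjusted p = 2.38e-05), and both calls were held in all 40 alternatives. Heart and liver shared a slide, on which they differed by 6.31. Heart and fat overlapped, and the arrays of bone, at 0.10 and 2.51, differed by more than most tissues did from each other.

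Fc receptors bind the constant part of antibodies. Fcgr3 and Fcgr4 activate the cell, Fcgr2b inhibits it, and Fcer1g encodes the gamma chain that Fcgr3, Fcgr4 and the IgE receptor need for signalling. The 4 genes lie close together on chromosome 1. The 250 bases before their RefSeq start sites are shown because the genes are neighbours with partly shared profiles, and capitals mark AGGAAG (or CTTCCT on the other strand), which holds the GGAA core known for factors of the ETS family:
Fcgr2b (GRCm38.p6, chr1:170976072-170976321, minus strand): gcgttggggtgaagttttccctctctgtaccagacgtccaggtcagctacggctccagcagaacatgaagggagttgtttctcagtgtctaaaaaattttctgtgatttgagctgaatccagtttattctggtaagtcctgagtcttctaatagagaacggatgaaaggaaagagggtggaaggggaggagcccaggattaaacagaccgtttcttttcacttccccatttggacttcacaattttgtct
Fcgr4 (GRCm38.p6, chr1:171018676-171018925, plus strand): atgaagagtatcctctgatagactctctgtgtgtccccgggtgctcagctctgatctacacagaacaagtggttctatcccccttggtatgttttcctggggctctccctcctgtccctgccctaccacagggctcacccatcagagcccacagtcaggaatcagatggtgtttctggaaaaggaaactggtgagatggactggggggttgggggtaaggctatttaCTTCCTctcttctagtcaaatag
Fcgr3 (GRCm38.p6, chr1:171059395-171059644, minus strand): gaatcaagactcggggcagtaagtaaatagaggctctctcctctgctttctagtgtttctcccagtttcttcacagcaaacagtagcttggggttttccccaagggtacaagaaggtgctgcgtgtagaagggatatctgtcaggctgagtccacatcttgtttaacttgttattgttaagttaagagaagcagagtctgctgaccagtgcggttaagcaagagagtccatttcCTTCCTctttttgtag
Fcer1g (GRCm38.p6, chr1:171234350-171234599, minus strand): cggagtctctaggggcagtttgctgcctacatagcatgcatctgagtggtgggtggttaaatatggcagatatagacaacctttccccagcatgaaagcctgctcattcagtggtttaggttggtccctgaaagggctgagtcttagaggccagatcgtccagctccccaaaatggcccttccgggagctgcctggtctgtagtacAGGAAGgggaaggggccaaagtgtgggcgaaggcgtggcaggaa

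Searched on both strands, this motif was present before Fcgr4, Fcgr3 and Fcer1g, at 23, 16 and 44 bases from the start. Another listed start of Fcgr3, not shown, had it at 7 bases. Before Fcgr2b the full motif was absent, although the printed stretch holds the GGAA core. The full motif occurred in 29.5% of all 32851 promoters of that table and in 41.4% of the 29 promoters of the immune genes. Counted by gene, with a match in any of its promoters, these were 11 of the 24 immune genes with a promoter in the table (45.8%), tested or not, and 32.3% of all genes there. A match is a description of letters and not of binding.

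Fcer1g was above background on all arrays. It read 2.24 and 1.95 in bone, 1.41 and 1.64 in lung and 1.28 and 1.47 in fat, and in eyes (0.12 and -0.01) and muscle (0.11 and 0.07) it was lowest. Both bone arrays lay above every other array. Fcer1g was higher in bone by 1.25 (SE 0.12, adjusted p = 1.74e-07) and in lung by 0.64 (SE 0.12, adjusted p = 0.000221), and lower in eyes by -0.94 (adjusted p = 3.04e-06) and in muscle by -0.90 (adjusted p = 3.78e-06). Here too the reference channel moved with the tissue, with Cy5 at 3063 and 1596 in bone against a median of 710, and the r between log2 Cy3 and log2 Cy5 over 30 arrays was 0.933. With the Cy3 level alone the bone difference was 2.86 (adjusted p = 4.49e-09), past the limit for a call.

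Fcgr3 read 2.46 and 2.33 in bone, 1.94 and 2.71 in fat, 2.38 and 1.77 in lung and 1.98 and 1.73 in heart. The arrays of fat overlapped with those of the other 3 tissues, whereas heart and bone did not overlap. It was lowest in eyes (-0.27 and -0.33) and muscle (0.13 and -0.30), as was Fcer1g. The difference was 1.5 in bone (SE 0.21, adjusted p = 1.65e-05), 1.42 in fat (adjusted p = 5.07e-05) and -1.39 in eyes (adjusted p = 2.55e-05), with no tissue past the limit for a call. The tissue means of Fcer1g and Fcgr3 correlated at r = 0.852 (0.818 to 0.899 in 6 other settings).

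Fcgr2b had another order of tissues. It read 1.75 and 1.6 in fat, 1.47 and 1.53 in kidney and 1.25 and 0.98 in liver, against 0.48 and 0.28 in bone. On the cerebellum arrays it read -2.34 and -2.45. The difference was 2.33 in fat (SE 0.23, adjusted p = 4.51e-07), 2.15 in kidney (SE 0.23, adjusted p = 3.61e-07) and 1.73 in liver (adjusted p = 3.34e-06). In cerebellum it was -2.03 (SE 0.23, adjusted p = 4.10e-07). Of these, the call in fat was held in all 39 alternatives. That in kidney was lost with the Cy3 level alone (1.97), and that in cerebellum in 5 of 40 alternatives (lowest size -1.58 with median centring), among them those without cerebellum replicate 2 (-1.98) and without large intestine replicate 1 (-1.98). Its r with Ptprc was 0.59, against 0.85 for Fcer1g and 0.666 for Fcgr3. Fcgr4 was above background on both arrays in lung only, ranged from -0.53 to 0.09, and did not pass the F-test (adjusted p = 0.14). It did pass with the scanner's processed signals (adjusted p = 1.63e-05), where it was low in eyes by -2.59, and in the authors' table (adjusted p = 0.00114). As most of its tissue means lie at background, its r with Ptprc (0.769, and 0.557 to 0.773 in 6 other settings) describes little of its level.

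**Figure D5:**
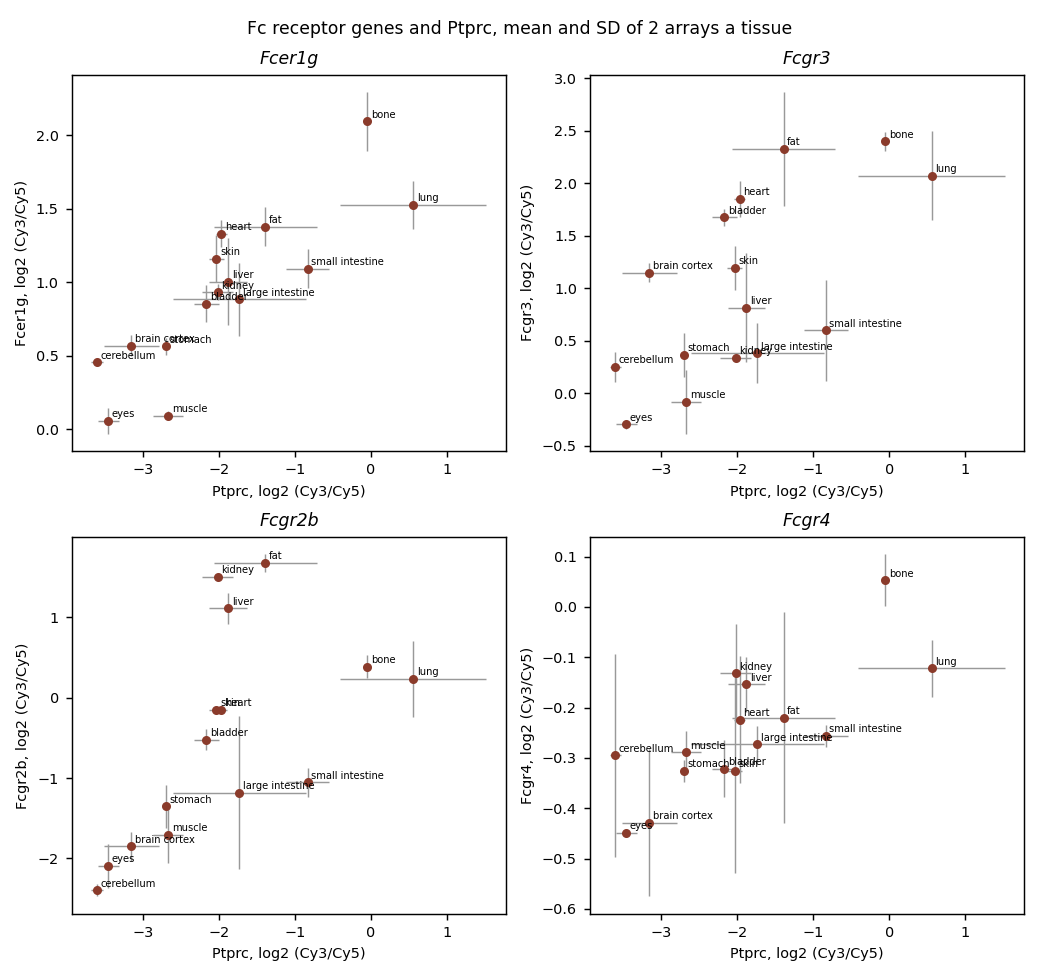
Tissue means of log2(Cy3/Cy5) of the 4 Fc receptor genes (vertical) against Ptprc (horizontal), with the SD of 2 arrays as bars on both axes. Fcer1g follows Ptprc most closely (r = 0.85 over 15 tissues), while for Fcgr2b fat, kidney and liver lie above tissues of equal or higher Ptprc.

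Cd28 is the costimulatory receptor of T cells and Cd247 is the zeta chain of the T cell receptor complex. Cd28 read 0.77 and 1.38 in muscle and 0.30 and 0.17 in heart, and every other array lay at or below -0.15. It was above background on both arrays of 7 tissues. The difference was 2.41 in muscle (SE 0.23, adjusted p = 8.31e-08) and 1.5 in heart (SE 0.23, adjusted p = 3.33e-05), and the muscle level was at least 6.7-fold that of the 4 tissues without signal. With median centring the muscle difference was 1.92, under the limit for a call, whereas it was 4.55 in the authors' table and 4.63 with the scanner's processed signals. The heart difference was past the limit in both of these (3.40 and 3.43) and with the offset of 10 (2.16). In the authors' table and with the scanner's signals Cd28 was also past the limit in lung (2.09 and 2.20). In these settings it was low in brain cortex (-2.33 and -2.26), eyes (-2.79 and -3.10) and stomach (-2.48 and -2.71). Of 11 T and NK cell genes, 8 had no muscle array above background, 0 of the 9 tested were enriched in muscle, and the mean over the list was -0.65 and -0.57 there against -0.01 and 0.40 in lung. Cd247 was above background on both arrays of 3 tissues and was highest in lung with 0.69 and 0.38 (difference 0.35, SE 0.11, adjusted p = 0.0139), a difference that was 2.11 with the scanner's processed signals. Muscle came next with 0.46 and 0.42, and the tissue means of Cd28 and Cd247 correlated at r = 0.669 (0.452 to 0.695 in 6 other settings). As most tissue means of Cd247 lie at background, this r describes little of its level. The reference signal of Cd247 was above background on no array. It passed the F-test in 34 of 40 alternatives.

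H2-Ob (chromosome 17), a chain of the class II molecule DO that tunes peptide loading in B cells, was above background on all arrays within a narrow range. It read 1.46 and 0.85 in skin and 1.01 and 1.17 in liver, with differences of 0.87 (SE 0.18, adjusted p = 0.00101) and 0.80 (adjusted p = 0.0013). Of 5 B cell genes outside the set, 0 were enriched in skin or liver and 2 were enriched in lung.

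Cd55 encodes decay-accelerating factor, which protects cells from complement. It read 4.19 and 4.20 in small intestine, 3.86 and 2.45 in large intestine, 3.25 and 3.66 in lung and 3.44 and 3.35 in muscle. In brain cortex it read -0.21 and 0.13 and in cerebellum -0.02 and -0.06. Both small intestine arrays lay above all others, and brain tissues and eyes were lowest. The difference was 2.34 in small intestine (SE 0.29, adjusted p = 2.38e-06), -2.19 in brain cortex (SE 0.29, adjusted p = 3.04e-06) and -2.19 in cerebellum (SE 0.29, adjusted p = 3.28e-06). With the Cy3 level alone they were 2.39, -2.15 and -2.13. All 3 calls fell under the limit with median centring (1.73, -1.64 and -1.68), and that in cerebellum also with the slide as a random block (-1.92).

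Ly96 encodes MD-2, the partner of TLR4 in sensing lipopolysaccharide. It read 1.39 and 1.65 in stomach, 1.48 and 1.34 in liver and 1.35 and 1.42 in bladder, and -1.38 and -1.31 in muscle. The arrays of large intestine, 0.92 and -0.82, spanned much of this range. The difference was 1.32 in stomach (SE 0.26, adjusted p = 0.00065), 1.20 in liver (adjusted p = 0.000803) and -1.75 in muscle (adjusted p = 1.82e-05). Over the tissues its r with Ptprc was 0.347. Tnfrsf11a encodes RANK, the receptor through which osteoclasts form. Its Cy5 signal was above background on no array and its Cy3 signal on both arrays of large intestine only (0.52 and 0.92), where the difference was 0.66 (SE 0.11). Tnfrsf11a passed the filter through large intestine alone, so the adjusted p there (5.98e-05) is no independent support for this tissue. The difference was 2.78 in the authors' table and 3.07 with the scanner's processed signals, past the limit for a call. With median centring Tnfrsf11a did not pass the F-test (adjusted p = 0.132). On the bone arrays it read 0.05 and -0.03 and was not above background.

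The secreted cytokines gave little signal. Il10, Il19, Il20 and Il24 are neighbours on chromosome 1 and members of the interleukin-10 family. Of these, Il10 was above background on 3 arrays and Il19 on none, and Il20 did not pass the F-test (adjusted p = 0.692). Il24 passed it with an adjusted p of 0.00217, with values between -1.28 and -0.10, but its Cy3 signal was above background on both arrays only in skin and large intestine. The F-test was not passed with median centring (adjusted p = 0.103), the Cy3 level alone (0.111) or the slide as a random block (0.172). Il17a, the effector cytokine of Th17 cells, had no array above background in either channel. Il17f was above background on both arrays only in kidney (-0.08 and -0.04) and eyes (-0.74 and -0.59), and was higher in kidney by 0.56 (SE 0.14, adjusted p = 0.00316). This difference was 2.19 in the authors' table and 2.35 with the scanner's processed signals, past the limit for a call, and Il17f passed the F-test in 36 of 39 alternatives (with median centring, adjusted p = 0.103). For Il10, Il17f, Il24 and Il1rl1 the Cy5 signal was above background on at least 29 arrays. A negative ratio without Cy3 signal gives the reference level and sets only an upper bound in the tissue. Il27 (chromosome 7), which encodes a chain of interleukin-27, was above background on all arrays and read 1.30 and 1.31 in liver (difference 1.14, SE 0.19, adjusted p = 4.18e-05). Irf2bp1 was above background on all arrays. It read 0.32 and 1.97 in large intestine and 0.91 and 1.24 in cerebellum, where it was higher by 0.79 (SE 0.25, adjusted p = 0.0122).

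Among other immune genes of the same lists, 10 of 10 leukocyte genes passed the F-test and 7 were enriched in at least 1 tissue. Over all probes 90.7% passed the F-test and 34.1% were enriched in at least 1 tissue. Of 5 genes of macrophages and osteoclasts 3 were enriched, 2 in liver, 2 in lung, 1 in bone and 1 in large intestine. Over all probes 5.4% were enriched in liver, 4.31% in lung, 3.16% in bone and 3.99% in large intestine. Complement genes and their regulators were enriched in 4 of 5 cases, all 4 in liver and some in further tissues. Of 9 tested T and NK cell genes 1 was enriched, in liver, and of 5 B cell genes 4 were. Of 11 receptor signalling genes 4 were enriched and 3 low (13.1% of all probes), 3 in brain cortex (3.98%). Of 3 selectins 1 was enriched, in bladder (2.34%), and none of the 3 TNF family ligands nor the mast cell protease Tpsb2 was. Where a share is near that over all probes, as for the F-test, the enriched signalling genes and the selectins, nothing is read from it. These lists were chosen with earlier results of these data known and are given as a description.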

How the data were processed

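RNA of 15 tissues of male C57BL/6 mice was measured on 30 Agilent two-colour arrays. The authors deposited scanner output from Agilent Feature Extraction 9.5.1.1 per array, with mean spot and local background intensity for each dye and other flags per spot, and 1 table of log10 values. A comparison with the scanner signals showed this deposited log10 table to be the Cy3 level adjusted for the Cy5 reference, and it served as an alternative. The intensity values as deposited were not normalised between arrays.

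Control spots and outlier spots were left out, the background was corrected with normexp (offset 50), arrays were normalised by loess, and log2(Cy3/Cy5) was formed. Probes were kept (21019) where 1 tissue or more had both of its arrays clearly above background in Cy3. A cell-means model was fitted over the 30 arrays with limma 3.58.1 in R 4.3.3, followed by the F-test among tissues and each tissue against the mean of the other 14, two-sided, with Benjamini-Hochberg adjustment over all probes in each comparison. With 2 arrays a tissue, the number of arrays limits the precision. Bounds written "at least" set the Cy3 mean of the bright tissue against the higher of the dim probe's own signal and the lowest signal well above background. Named genes were the members of the set, with their enriched and low tissues in full, and among other genes Ptprc. The members and gene lists were chosen with earlier results of these data known. The fit was tested on simulated data. Alternatives were median centring, an offset of 10, the scanner's processed signals, the Cy3 level alone, the authors' table, no filter or a stricter one (3 tissues), the slide as a random block, a replicate block, leaving out 3 tissues and leaving out each array. Slide and scan day as fixed blocks could not be fitted, because some sets of slides hold no tissue in common. Promoter sequences came from RefSeq (GRCm38.p6).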

Additional observations from a re-analysis of the deposited data

How the results depend on the processing

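Of 638 values of the called genes under the alternatives, 626 kept their call, 12 fell under the limit of 2 in size and 0 changed sign. Most alternatives left out a single array, and changing the filter or adding a replicate block left the differences unchanged. The 626 thus come mostly from settings that could change little. Median centring lost more calls than any other alternative. With it, 9 combinations were enriched, 2 were low and 6 genes were higher in bone. With the offset of 10, 10 combinations were low and the median information was 0.245 bits. The scanner's processed signals gave 26 enriched and 21 low combinations and 0.373 bits, and the values the authors deposited gave 24 enriched and 20 low combinations and 0.317 bits. The split of 12 enriched to 4 low combinations thus depends on the scaling. The median information was 0.271 bits with the Cy3 level alone, 0.0877 without a filter, 0.297 with the stricter filter, 0.217 from replicate 1 alone and 0.251 from replicate 2 alone. With the slide as a random block 8 genes were higher in bone. Leaving out 1 array at a time gave 21 to 22 genes in the F-test, 12 to 14 enriched combinations, 9 to 10 enriched genes and 3 to 5 low combinations. The genes lower numbered 9 to 15 in brain cortex, 12 to 17 in cerebellum and 5 to 12 in eyes, and those higher 8 to 13 in lung and 7 to 13 in bone. Deviations of same-numbered arrays correlated above 0.1 in 33 of 105 tissue pairs (median 0.0474). With 2 arrays a tissue this cannot settle whether arrays of the same number came from the same animal. With a replicate block the counts were 22 genes, 12 enriched combinations, 9 enriched genes and 4 low combinations. Differences between tissues are bounds where Cy3 was not above background. The cause of these changes was not tested.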
